A study of Mus musculus with 48 samples.

Results

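The effect of a KPC pancreatic tumor on the tibialis anterior (TA) muscle at circadian time 22 (CT22, 04:00 by the clock) was examined in 8 RNA-seq libraries, 4 from tumor-bearing and 4 from control mice, out of 48 libraries in the series. The 8 libraries were taken by their labels: 2 mice of each genotype carried KPC tumors and 2 of each genotype were controls. The labels and the study's methods give male mice of 39 to 55 weeks. The study's limitations section gives a younger age for its RNA-seq mice, so the age is uncertain. The WT mice carried floxed Foxp1 alleles without Cre per the series text, although their sample labels give the strain C57BL/6J, and the FoxP1SkmKO mice carried the floxed alleles together with ACTA1-Cre, which is active in skeletal muscle fibers and leaves Foxp1 intact in the other cells of the muscle. KPC mice received 250000 murine KPC pancreatic cancer cells in 50 µl of PBS into the pancreas, and controls received PBS alone. All mice were moved from a 12 h light/dark cycle into constant darkness before sampling. Each library came from 1 mouse, so the spread between the 2 libraries of a group includes the differences between animals.

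KPC cells are a mouse pancreatic ductal adenocarcinoma line, and mice that carry them develop cachexia, the wasting of muscle and fat that accompanies many cancers. In such muscle, inflammatory cytokines of the IL-6 family act through JAK kinases and STAT3, ubiquitin ligases such as atrogin-1 mark contractile proteins for degradation, and mitochondrial and matrix genes are often altered. Skeletal muscle also has its own clock, in which CLOCK and BMAL1 bind E-boxes and drive their own repressors, among them Per1, Nr1d1 and Bhlhe40, so the hour of sampling sets the level of many genes.

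Levels are given as TMM-scaled CPM (counts relative to library size), and differences as log2 fold changes of KPC against control, averaged over the 2 genotypes and fitted by edgeR's quasi-likelihood test with 1 coefficient per group. A gene was called where its Benjamini-Hochberg adjusted p was under 0.05 over all 15637 genes tested. Library totals at CT22 ran from 16765749 to 20139355 counts. The replicate pairs differed by more than counting noise, with 7.57 to 12.3 chi-square units per degree of freedom, so no library was a copy of another. Muscle fiber transcripts dominated every library: the 12 fiber markers summed to 190000 to 206000 CPM in controls and 170000 to 198000 CPM in KPC muscle. Foxp1 itself was at 7.39 and 7.44 CPM in WT controls, 8.12 and 5.98 in FoxP1SkmKO controls, 6.31 and 7.46 in WT KPC and 6.95 and 7.43 in FoxP1SkmKO KPC muscle. The ranges of the 2 genotypes overlapped, but a gene-level count includes exons outside the floxed segment and cells in which ACTA1-Cre is not active, so it does not check the knockout.

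One control library stood apart by its liver transcripts. The 63 liver markers summed to 316 CPM in FoxP1SkmKO control replicate 1 and to 22.1 to 46.4 CPM in the other 7 libraries at CT22. Alb, which encodes serum albumin, was at 65.6 CPM there, at 5.79 CPM in FoxP1SkmKO control replicate 2 and at 0.0503 to 1.95 CPM in the other 6. The 57 liver genes that were tested had a median log2 fold change of -1.82, which became -0.28 without that library. They are therefore not read as an effect of the tumor below, but they stay in the counts and shares of the main fit. The same library was also high in interferon-responsive genes, as described below.

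No gene was called for the KPC effect at CT22 over both genotypes, which is 0% of the 15637 genes tested. The lowest adjusted p from edgeR was 0.971. At an unadjusted p under 0.05 there were 642 genes (4.11%), 299 of them higher and 343 lower in KPC muscle, and DESeq2 on the same libraries also called 0. The median standard error of the log2 fold change was 0.14. By the same fit and threshold, 9 genes were called at CT18 (0.0192% of genes higher and 0.0384% lower), 982 at CT26 (6.28%, with 3.84% higher and 2.44% lower), 1 at CT30, 0 at CT34 and 96 at CT38, each from 4 KPC against 4 control libraries. Whether the number of calls differed between times was not tested beyond the gene-by-gene comparison given below.

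**Figure D1:**
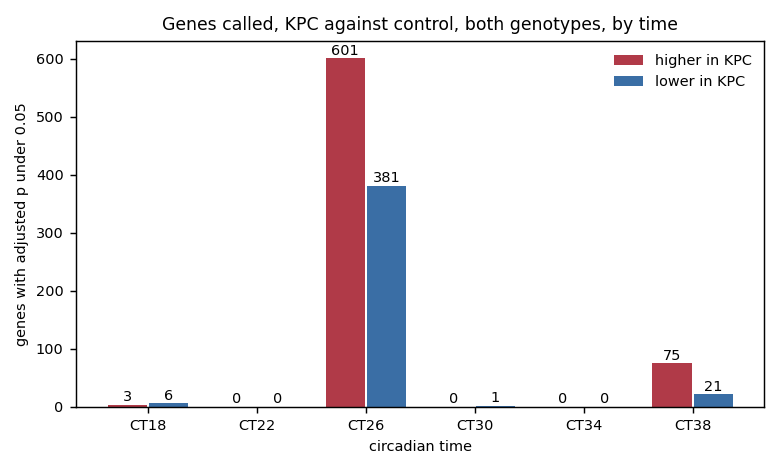
Number of genes with an adjusted p under 0.05 (y axis) for KPC against control over both genotypes at each of the 6 circadian times (x axis), split into genes higher and lower in KPC muscle. CT22 and CT34 have 0 calls, and CT26 has 601 higher and 381 lower.

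The number of calls within each genotype differed between tools and sets of libraries. Within WT muscle, edgeR called 0 genes, with 746 at an unadjusted p under 0.05 (4.77%, with 2.32% higher and 2.46% lower). DESeq2 fitted to the 4 WT libraries alone called 29, of which 16 were higher and 13 lower in KPC muscle, and DESeq2 on all 48 libraries called 13, of which 2 were higher and 11 lower. The 29 included the clock repressors Bhlhe40 (adjusted p by DESeq2 4.96e-06) and Nr1d1 (0.00072), the hypoxia-inducible prolyl hydroxylase gene Egln3 (0.0123) and the glycolytic regulator Pfkfb3 (0.000763). Of these 4, Bhlhe40 was also among the 13. Within FoxP1SkmKO muscle, edgeR called 0 genes, with 733 at an unadjusted p under 0.05 (4.69%, with 1.96% higher and 2.72% lower). DESeq2 on the 4 libraries called 7, among them the liver gene Serpina1e, and DESeq2 on all 48 called 1. The 1 gene was Wdfy4, at 1.96 and 20.4 CPM in the FoxP1SkmKO controls and 1.42 and 0.782 CPM in FoxP1SkmKO KPC muscle. That difference rested on control replicate 2.

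Among the 19 clock genes tested, 14 had a log2 fold change above 0 and the median was 0.05, beside -0.004 over all genes, of which 48.7% were above 0. The 2 members with an unadjusted p under 0.05 were both higher in KPC muscle, where 1.91% of all genes were, and both are repressors driven by CLOCK and BMAL1. Bhlhe40, which encodes the repressor DEC1, was at 71.8 and 68.2 CPM in WT controls, 81.4 and 93.2 in FoxP1SkmKO controls, 119.7 and 109 in WT KPC, and 93.0 and 123 in FoxP1SkmKO KPC muscle. Both WT KPC libraries were above all 4 controls, while FoxP1SkmKO KPC replicate 1 was level with the higher FoxP1SkmKO control. Its log2 fold change was 0.51 (SE 0.12, unadjusted p of 0.000148 and adjusted p of 0.971 by edgeR), with 0.70 in WT and 0.31 in FoxP1SkmKO muscle.

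Nr1d1, which encodes REV-ERBα, was at 78.4 and 80.4 CPM in WT controls, 108 and 92.5 in FoxP1SkmKO controls, 111 and 126 in WT KPC, and 87.0 and 120.5 in FoxP1SkmKO KPC muscle. Both WT KPC libraries were above both WT controls, while the FoxP1SkmKO groups overlapped. The log2 fold change was 0.31 (SE 0.13, unadjusted p of 0.0258 by edgeR), with 0.57 in WT and 0.05 in FoxP1SkmKO muscle, and the difference between genotypes had an unadjusted p of 0.058 in edgeR. Per1, an early-responding period gene, was at 33.2 and 13.6 CPM in WT controls, 29.6 and 33.7 in FoxP1SkmKO controls, 26.2 and 17.9 in WT KPC, and 34.8 and 24.1 in FoxP1SkmKO KPC muscle. Its groups overlapped in both genotypes, with a log2 fold change of -0.11 (SE 0.24). Without WT control replicate 1 that value was 0.29.

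Most other clock genes lay close to 0. Arntl, which encodes BMAL1, had a log2 fold change of 0.05 and Clock of 0.07, and their partner paralog Npas2 of 0.01. Values for Per2 and Per3 were 0.22 and 0.01, for Cry1 and Cry2 -0.03 and 0.03, and for the nuclear receptors Nr1d2 and Rora 0.06 and 0.06. The output factors Dbp, Tef, Hlf and Nfil3 were at -0.18, 0.02, -0.12 and 0.13. The remaining repressors Bhlhe41 and Ciart were at -0.20 and 0.57, the latter from levels of 0.54 to 1.64 CPM.

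Bhlhe40, Nr1d1 and Per1 each carry a canonical E-box, the site that CLOCK and BMAL1 bind, in the bases just before the gene start given in the deposited annotation. The sites are shown because these 3 genes share that input, and no test compared their values at CT22 with one another. Each line gives 30 bases of mm39, 5′ to 3′ on the strand of the gene, with CACGTG in capitals.
Bhlhe40, chr6:108637321-108637350, plus strand: agcgttgtccaaCACGTGaggctcatgtga
Nr1d1, chr11:98666509-98666538, minus strand: cagttctccaatCACGTGaagctctcacgt
Per1, chr11:68985697-68985726, plus strand: tgagccagcctgCACGTGttccctacagct
Per1, chr11:68985881-68985910, plus strand: cgcccccgccctCACGTGgctctatcacta
The first base of the E-box lies 257 bases before the gene start in Bhlhe40, 367 in Nr1d1, and 334 and 150 in Per1. The letters CACGTG, which read the same on both strands, occur between 500 bases before and 50 after the gene start in 13.1% of 15607 genes tested, so the motif is common, and a match is not evidence of binding here.

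Of the 7 genes that the study names for CT18 and CT22, the other 4 are a prolyl hydroxylase, a glycolytic regulator and 2 plasma protein genes. Egln3 was at 17.5 and 16.4 CPM in WT controls, 20.97 and 20.86 in FoxP1SkmKO controls, 37.4 and 24.9 in WT KPC, and 22.8 and 17.3 in FoxP1SkmKO KPC muscle. The WT groups were apart and the FoxP1SkmKO groups overlapped. The log2 fold change was 0.87 (SE 0.20) in WT and -0.06 (SE 0.20) in FoxP1SkmKO muscle, and the difference between them had an unadjusted p of 0.0021 but was not called.

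Pfkfb3, which encodes the enzyme that makes the activator of phosphofructokinase, was at 92.1 to 112 CPM in the 4 controls, at 151 and 157 CPM in WT KPC, and at 88.2 and 194 CPM in FoxP1SkmKO KPC muscle. FoxP1SkmKO KPC replicate 1 lay below all controls and replicate 2 above every other library, and the log2 fold change was 0.54 (SE 0.30), or 0.20 without replicate 2. The complement gene C3 and the transglutaminase gene F13a1 were at 0.33 (SE 0.29) and 0.33 (SE 0.27). C3 was at 0.02 without WT KPC replicate 2, and F13a1 at -0.03 without FoxP1SkmKO KPC replicate 1. These 7 genes were chosen by the study on these samples, so their values are not independent evidence of a direction.

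**Figure D2:**
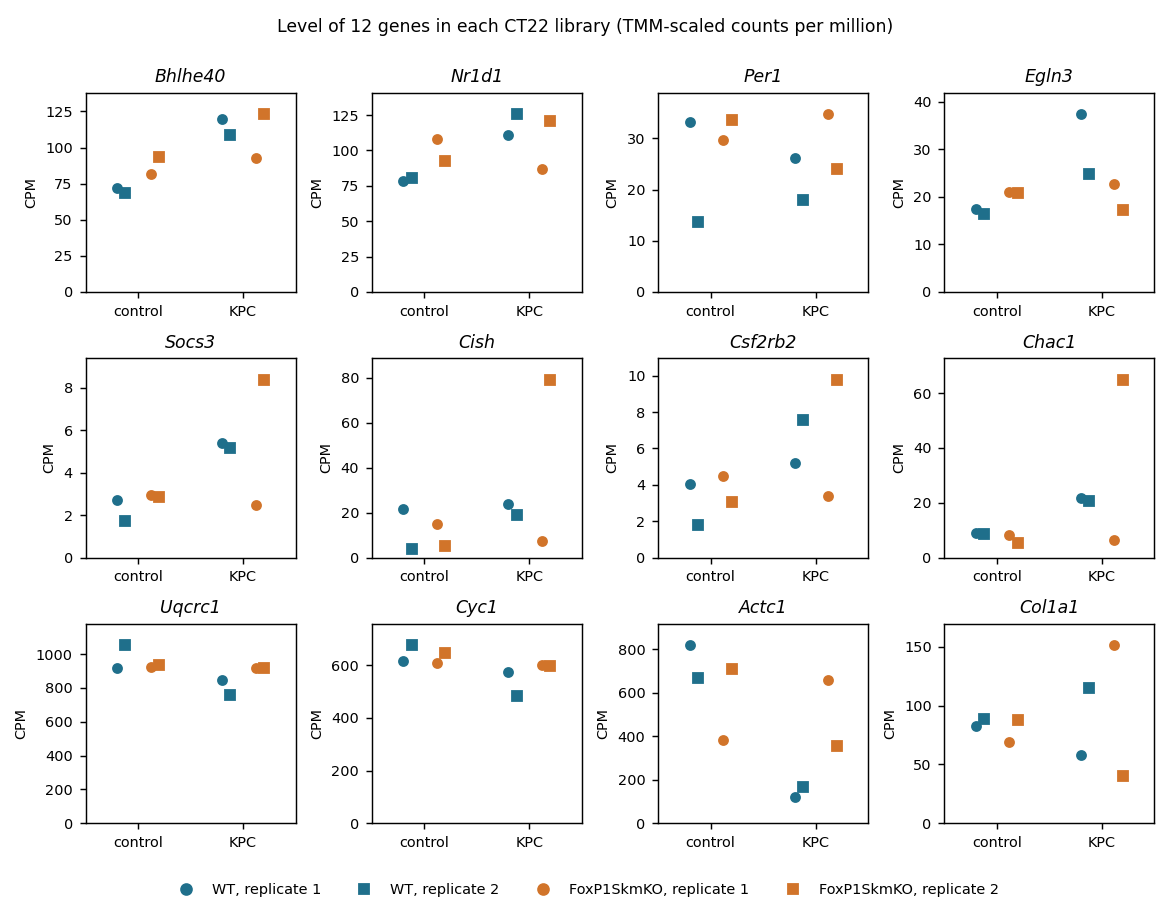
TMM-scaled CPM (y axis, from 0) of 12 genes in each of the 8 CT22 libraries, controls on the left and KPC on the right of each panel, with color for genotype and shape for replicate. Socs3, Csf2rb2 and Chac1 are above every control in 3 of the 4 KPC libraries, while FoxP1SkmKO KPC replicate 1 lies among the controls.

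Of the 25 IL-6 and JAK-STAT genes, 8 were higher and 0 lower at an unadjusted p under 0.05, beside 1.91% of all genes higher. None was called, 21 of 25 had a log2 fold change above 0, and the median was 0.27. The most abundant members, the signal transducers Stat5b and Stat3, the shared receptor chain Il6st and the kinase Jak1, were at 0.03, 0.15, 0.08 and -0.02. The members described next were picked with their values in view, as those with a low p, and were present at lower CPM than these.

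Socs3, the STAT3-induced inhibitor of IL-6 signaling, was at 2.71 and 1.74 CPM in WT controls, 2.96 and 2.87 in FoxP1SkmKO controls, 5.42 and 5.18 in WT KPC, and 2.46 and 8.38 in FoxP1SkmKO KPC muscle. FoxP1SkmKO KPC replicate 1 lay within the range of the controls and the other KPC libraries above it. The log2 fold change was 1.06 (SE 0.32, unadjusted p of 0.00213 by edgeR) and was 0.50 without FoxP1SkmKO KPC replicate 2.

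Csf2rb2, a cytokine receptor chain of the IL-3 family, also had FoxP1SkmKO KPC replicate 1 among the controls and the other KPC libraries above them, with 1.80 to 4.50 CPM in controls, 5.19 and 7.56 CPM in WT KPC, and 3.39 and 9.77 CPM in FoxP1SkmKO KPC muscle. Its log2 fold change was 0.95 (SE 0.27), or 0.48 without FoxP1SkmKO KPC replicate 2. Cish, a STAT5-induced inhibitor, was at 21.6 and 4.02 CPM in WT controls, 14.9 and 5.06 in FoxP1SkmKO controls, 23.8 and 18.8 in WT KPC, and 7.56 and 79.0 in FoxP1SkmKO KPC muscle. Its log2 fold change of 1.42 (SE 0.59) rested on FoxP1SkmKO KPC replicate 2, without which it was 0.17. Cebpd, which encodes a C/EBP factor induced by IL-6, had 0.53 (SE 0.18), or 0.31 without WT KPC replicate 2. Socs1, Il1r1, Il4ra and Jak3 had 1.05, 0.43, 0.41 and 0.37. Without FoxP1SkmKO KPC replicate 2, Socs1 was at 0.23 and Jak3 at 0.11, and Il4ra was at 0.25 without WT control replicate 2.

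Stat3 was the member of this list whose 4 KPC libraries lay above all 4 controls, where 1.15% of all genes did so. It was at 54.0 and 52.3 CPM in WT controls, 56.9 and 56.8 in FoxP1SkmKO controls, 64.2 and 63.3 in WT KPC, and 58.5 and 58.8 in FoxP1SkmKO KPC muscle. The step was larger in WT (0.26, SE 0.13) than in FoxP1SkmKO muscle (0.04, SE 0.13), with an unadjusted p of 0.233 for the difference. The list count itself leaned on 1 library: without FoxP1SkmKO KPC replicate 2, 1 of 25 members had an unadjusted p under 0.05 and the median was 0.11, and without FoxP1SkmKO KPC replicate 1 there were 10 and the median was 0.36.

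Chac1, a glutathione-degrading enzyme induced by the integrated stress response, again had FoxP1SkmKO KPC replicate 1 among the controls and was likewise picked with its values in view. It was at 5.16 to 8.996 CPM in the 4 controls, 21.7 and 20.8 in WT KPC, and 6.41 and 64.8 in FoxP1SkmKO KPC muscle. The log2 fold change was 1.85 (SE 0.48), it was 0.61 without FoxP1SkmKO KPC replicate 2, and without replicate 1 it was 2.29 and called (adjusted p = 0.0429 by edgeR). The other members of the stress response list did not follow: 1 of 22 was higher at an unadjusted p under 0.05, Chac1 itself, and 1 was lower, Atf3 at -0.61, with a median of 0.03. Of all genes, 1.91% were higher and 2.19% lower at that threshold.

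Atrophy genes were near the background. Of 25 tested, 1 was higher at an unadjusted p under 0.05, beside 1.91% of all genes, and the median was 0.04. Fbxo32, which encodes atrogin-1, was at 201 and 221 CPM in WT controls, 229.7 and 146 in FoxP1SkmKO controls, 185 and 309.8 in WT KPC, and 225 and 432 in FoxP1SkmKO KPC muscle. One KPC mouse of each genotype was above the controls and the other within them, with a log2 fold change of 0.52 (SE 0.27, unadjusted p of 0.0618 by edgeR), or 0.25 without FoxP1SkmKO KPC replicate 2. Trim63, which encodes MuRF1, had 0.07 (SE 0.12). Fbxo30, which encodes the ubiquitin ligase MUSA1, was the 1 member of 25 whose libraries did not overlap, beside 1.15% of all genes in that direction. It was at 9.45 to 11.3 CPM in controls and 11.8 to 12.9 CPM in KPC muscle, a log2 fold change of 0.24 (SE 0.09).

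Interferon-responsive and antigen-presentation genes had medians of opposite sign in the 2 genotypes. In WT muscle 35 of 39 interferon-responsive genes had a log2 fold change above 0, with a median of 0.53, and in FoxP1SkmKO muscle 10 of 39, with a median of -0.25. The difference between genotypes had an unadjusted p under 0.05 for 14 of the 39, beside 5.27% of all genes (2.74% with the larger value in WT and 2.53% in FoxP1SkmKO muscle), and none of the 14 was called. MHC class I genes had medians of 0.37 in WT and -0.12 in FoxP1SkmKO muscle. They summed to 716 CPM in FoxP1SkmKO control replicate 1 and to 496 to 534 CPM in the other controls. Without that library their median over both genotypes was 0.26 rather than 0.13.

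Gbp4, an interferon-induced GTPase, was at 11.0 and 10.2 CPM in WT controls, 39.1 and 10.9 in FoxP1SkmKO controls, 32.7 and 19.7 in WT KPC, and 9.47 and 27.5 in FoxP1SkmKO KPC muscle. The high FoxP1SkmKO control was replicate 1, the library with liver transcripts. Over the whole list that library summed to 315 CPM, while the other 3 controls summed to 165 to 179 CPM, the WT KPC libraries to 287 and 225 CPM, and FoxP1SkmKO KPC replicates 1 and 2 to 172 and 261 CPM. The level in that control thus moves with the direction in FoxP1SkmKO muscle, and without it the median over both genotypes was 0.34 rather than 0.19, with 35 of 39 members above 0. The medians within each genotype, and the count of 14 members with a difference between genotypes, include that library. They were not computed for this list without it, so its part in the opposite signs and in that count was not tested.

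Macrophage markers were at 62.5 to 99.2 CPM in controls and 64.5 to 125 CPM in KPC muscle in sum. The most abundant of them, Lyz2, Csf1r, C1qb and C1qa, had log2 fold changes of 0.10, 0.06, 0.16 and 0.04. Cd163, a scavenger receptor of resident macrophages, was the 1 marker of 20 whose libraries did not overlap. Of all genes, 1.15% were higher in KPC muscle without overlap. Cd163 was at 5.20 to 6.58 CPM in controls and 6.93 to 8.43 CPM in KPC muscle (log2 fold change 0.41, SE 0.19). Neutrophil markers summed to 1.92 to 2.96 CPM in controls, to 5.36 and 5.08 CPM in WT KPC and to 2.74 and 1.40 CPM in FoxP1SkmKO KPC muscle. The WT KPC libraries were thus above all controls, as they were for interferon-responsive genes when FoxP1SkmKO control replicate 1 is set aside. Only 6 of 15 neutrophil markers passed the filter on low counts, each at a mean of 0.887 CPM or less at CT22. All 6 were above 0 in WT, with a median of 1.30, and 3 of 6 in FoxP1SkmKO muscle, with a median of -0.23. The part of these markers in the WT values of the immune lists was not tested. In whole muscle, more cells of a type and more RNA per cell cannot be told apart.

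**Figure D3:**
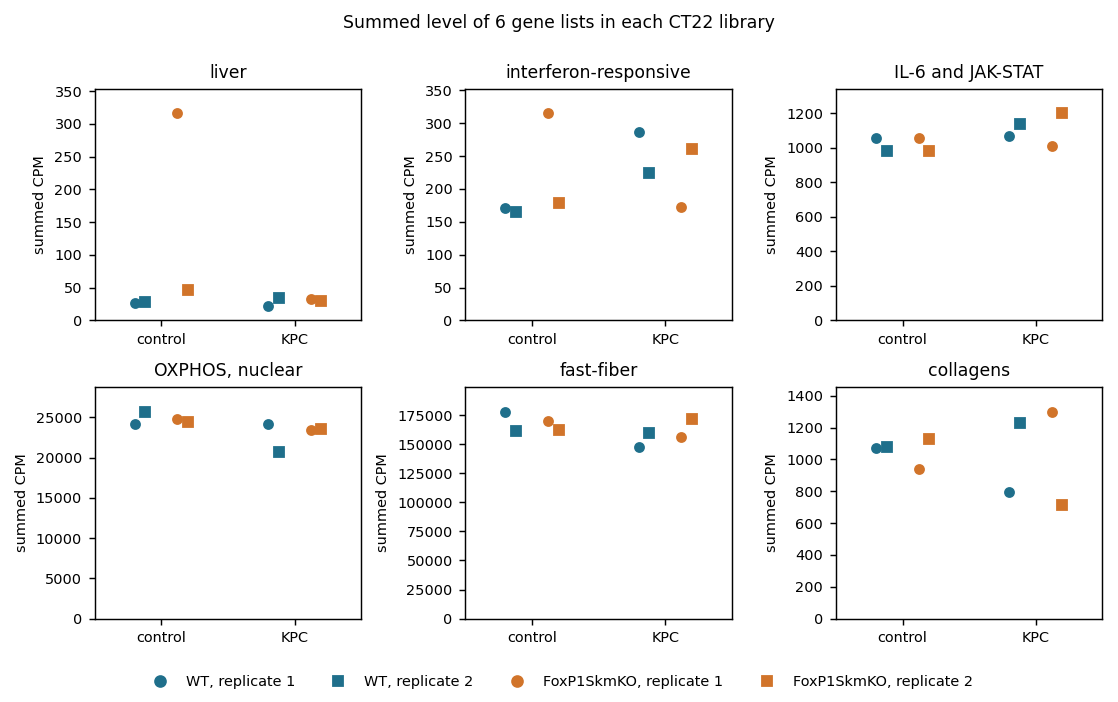
Summed CPM (y axis, from 0) of 6 gene lists in each CT22 library, by condition, with color for genotype and shape for replicate. FoxP1SkmKO control replicate 1 stands out for liver and interferon-responsive genes (316 and 315 CPM), WT KPC replicate 2 is lowest for nuclear OXPHOS genes, and the KPC libraries spread more widely than controls for collagens.

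No nuclear gene of oxidative phosphorylation (OXPHOS) was called. Most had small negative values, which over both genotypes leaned in part on 1 WT library. Of 83 tested, 80 had a log2 fold change below 0, beside 51.3% of all genes. The median was -0.11, or -0.10 with DESeq2 size factors. Within genotypes it was -0.11 in WT, with 4 of 83 above 0, and -0.09 in FoxP1SkmKO muscle, with 11 above 0. An unadjusted p under 0.05 was reached by 11 members, all lower, where 2.19% of all genes were lower, and in 9 members the 4 KPC libraries lay below all 4 controls, where 1.47% of all genes did so. The 2 most abundant, Atp5b and Atp5a1, the beta and alpha subunits of the catalytic part of ATP synthase, were both at -0.12 (SE 0.05).

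Cyc1, the cytochrome c1 subunit of complex III, was at 615 and 675 CPM in WT controls, 608 and 645 in FoxP1SkmKO controls, 572 and 483 in WT KPC, and 602 and 597 in FoxP1SkmKO KPC muscle. All 4 KPC libraries were under the controls, the FoxP1SkmKO ones by little, and the log2 fold change was -0.18 (SE 0.06). Uqcrc1, a core subunit of the same complex, was at 920.3 and 1052 CPM in WT controls, 921 and 935 in FoxP1SkmKO controls, 847 and 761 in WT KPC, and 919.8 and 917 in FoxP1SkmKO KPC muscle. Its value was -0.29 (SE 0.08) in WT and -0.02 (SE 0.08) in FoxP1SkmKO muscle, with an unadjusted p of 0.0132 for the difference. In Ndufb11, an accessory subunit of complex I, the FoxP1SkmKO mice had the larger value, -0.21 (SE 0.09) beside -0.15 (SE 0.09) in WT.

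The FoxP1SkmKO median of -0.09 came from other libraries, but WT KPC replicate 2 carried much of the value over both genotypes. The OXPHOS genes summed to 20700 CPM there, to 23400 to 24200 CPM in the other 3 KPC libraries and to 24200 to 25700 CPM in controls. Without that library 63 of 83 members were below 0, the median was -0.04 and 0 had an unadjusted p under 0.05 by edgeR, and without WT KPC replicate 1 the count at that threshold was 43. Of the enzymes of the tricarboxylic acid cycle, 21 of 23 were below 0, with a median of -0.09. That median was -0.14 in WT and -0.03 in FoxP1SkmKO muscle. Citrate synthase (Cs) was at 947 to 1032 CPM in controls and 828 to 941 CPM in KPC muscle. Transcripts encoded by the mitochondrial genome, which poly(A) selection captures unevenly, had a median of -0.02 over 13 genes.

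No fast-fiber or glycolytic gene was called. Of 17 fast-fiber genes, 14 had a log2 fold change below 0 (13 with DESeq2 size factors), the median was -0.11, 2 were lower at an unadjusted p under 0.05 (2.19% of all genes), and in 4 the KPC libraries lay under all controls (1.47% of all genes). Without FoxP1SkmKO control replicate 1, 0 fast-fiber genes had an unadjusted p under 0.05 by edgeR and the median was -0.07. Myh4, the fast IIb myosin and the most abundant of them, overlapped between groups (-0.09, SE 0.08). Myh1, the IIx myosin, was at 9482 to 12153 CPM in controls and 7122 to 10289 CPM in KPC muscle (-0.25, SE 0.11), and Pvalb, the calcium buffer parvalbumin of fast fibers, at 6948 to 8175 CPM in controls and 5791 to 6833 CPM in KPC muscle (-0.16, SE 0.09). Slow-fiber genes had a median of 0.02 over 14 genes.

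Of 26 glycolysis and glucose transport genes, 6 had an unadjusted p under 0.05, all lower, beside 2.19% of all genes, and the median was -0.04. That count was 1 without WT control replicate 1, 1 without FoxP1SkmKO control replicate 1 and 2 without FoxP1SkmKO KPC replicate 1. Pkm, the muscle pyruvate kinase, was at 4147 to 4436 CPM in controls and 3833 to 4035 CPM in KPC muscle without overlap (-0.14, SE 0.06), and Eno3, the muscle enolase, had -0.16 (SE 0.06). The lactate exporter Slc16a3 was at -0.43 in WT and 0.01 in FoxP1SkmKO muscle. Gapdh ranged from 27.9 to 692 CPM among the 8 libraries with low and high libraries in both conditions, and it has many near-identical processed copies in the genome, so its count is uncertain.

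Actc1, the cardiac actin that adult muscle re-expresses under stress, had the largest WT log2 fold change of the 14 developmental and stress sarcomere genes. It was at 818 and 668 CPM in WT controls, 381 and 711 in FoxP1SkmKO controls, 119.9 and 168 in WT KPC, and 657 and 354 in FoxP1SkmKO KPC muscle. The WT groups were far apart and the FoxP1SkmKO groups overlapped, with log2 fold changes of -2.37 (SE 0.64, adjusted p = 0.566 by edgeR, 0.038 by DESeq2 on the 48 libraries) and -0.11 (SE 0.60). The difference between genotypes had an unadjusted p of 0.0138 and was not called. Gpt, which encodes alanine aminotransferase, was picked with its values in view, as a gene of low p whose libraries did not overlap. It was at 31.9 to 36.9 CPM in controls and 23.4 to 30.2 CPM in KPC muscle, with -0.36 in WT and -0.34 in FoxP1SkmKO muscle.

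Collagen and other matrix genes spread more widely among the KPC mice than among the controls. Col1a1, the main fibrillar collagen chain, was at 82.5 and 88.7 CPM in WT controls, 69.0 and 87.8 in FoxP1SkmKO controls, 58.3 and 115 in WT KPC, and 151 and 39.9 in FoxP1SkmKO KPC muscle. In each genotype 1 KPC mouse was below and the other above every control. The log2 fold change was 0.15 (SE 0.35), and those of Col1a2 and Col3a1 were 0.14 (SE 0.31) and -0.11 (SE 0.29). The 14 fibroblast markers summed to 739 to 927 CPM in controls, to 651 and 1290 CPM in WT KPC and to 1190 and 501 CPM in FoxP1SkmKO KPC muscle. In each genotype the KPC mouse with the lower sum was the one with less Col1a1. Col1a1, Col1a2 and Col3a1 are themselves among these markers. Over 40 collagens the median was -0.10, and it ran from -0.33 without FoxP1SkmKO KPC replicate 1 to 0.10 without FoxP1SkmKO KPC replicate 2.

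**Figure D4:**
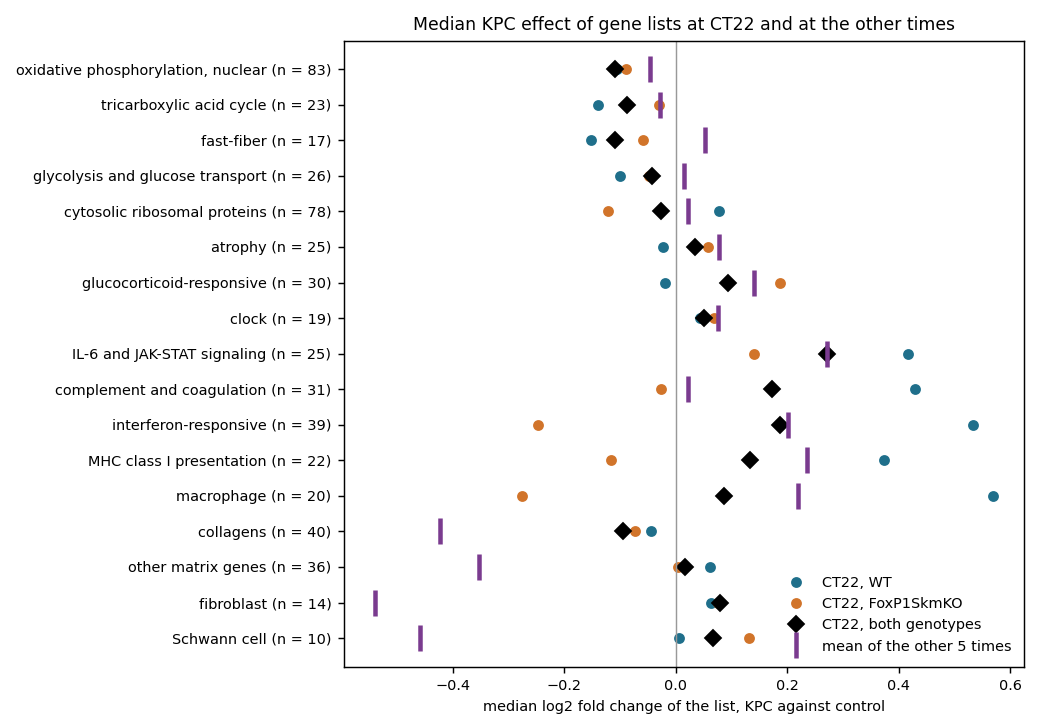
Median log2 fold change of KPC against control (x axis) over the tested members of 17 gene lists (y axis, n members), at CT22 in WT, in FoxP1SkmKO and over both, and as the mean of the other 5 times. Interferon-responsive, MHC class I and macrophage genes have a positive median in WT and a negative one in FoxP1SkmKO muscle. Without FoxP1SkmKO control replicate 1 (not drawn), their medians over both genotypes rose from 0.19, 0.13 and 0.09 to 0.34, 0.26 and 0.24. Collagens, other matrix, fibroblast and Schwann cell genes are near 0 at CT22 and below -0.35 at the other times.

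One gene was called for a difference of the KPC effect between the genotypes, Timp4, which encodes a tissue inhibitor of metalloproteinases (0.0064% of genes). It was at 49.8 and 52.7 CPM in WT controls, 27.4 and 30.2 in WT KPC, 44.8 and 36.5 in FoxP1SkmKO controls, and 69.7 and 54.6 in FoxP1SkmKO KPC muscle. KPC libraries were lower than controls in WT and higher in FoxP1SkmKO muscle, without overlap in either. The log2 fold changes were -0.83 (SE 0.18) and 0.62 (SE 0.18), and their difference of -1.45 (SE 0.26) had an adjusted p of 0.0491 by edgeR. The call was near the threshold: it was lost with DESeq2 size factors (adjusted p = 0.0515), with the replicate number as a block (0.0622) and in 6 of the 8 fits that left out 1 library, and held with DESeq2.

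Tuba4a, an alpha-tubulin of muscle, was called for the same difference by DESeq2 only (adjusted p = 0.0126). It was at 765 and 742 CPM in WT controls, 484 and 552 in WT KPC, 591 and 630.5 in FoxP1SkmKO controls, and 676 and 734 in FoxP1SkmKO KPC muscle. The WT and FoxP1SkmKO groups again moved opposite ways without overlap, with -0.54 (SE 0.11) and 0.21 (SE 0.11). Over all genes, 824 had an unadjusted p under 0.05 for the difference between genotypes.

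The KPC effect at CT22 was then set against the mean effect at the other 5 times, which came from 40 other libraries. No gene was called for the difference, with 807 genes at an unadjusted p under 0.05 (5.16%) and 0 called by DESeq2. Averaged over the other 5 times, 948 genes were called (6.06%), 528 higher (3.38%) and 420 lower (2.69%). Of the 528, 68.9% had a log2 fold change above 0 at CT22, beside 48.7% of all genes, and the median was 0.04, beside 0.16 at the other times. Of the 420, 64% were below 0 at CT22, with a median of -0.05, beside -0.35 at the other times. The smaller size at CT22 is in part fixed by choosing genes on the other times.

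Per1 and several matrix genes had another value at CT22 than at the other times, at unadjusted p only. Per1 had a mean log2 fold change of 0.58 (SE 0.10, adjusted p = 0.000561 by edgeR) at the other times, with 0.77 at CT18, 1.10 at CT26 and 0.64 at CT38, and -0.11 at CT22. The difference of -0.69 (SE 0.26) had an unadjusted p of 0.0118 and an adjusted p of 0.9, and was -0.28 without WT control replicate 1. Bhlhe40 and Nr1d1 were larger at CT22 than their means elsewhere of 0.19 and -0.05, with unadjusted p of 0.0182 and 0.0199, although Nr1d1 was at 0.55 (SE 0.14) at CT18, above its value at CT22.

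Of 40 collagens, 19 were called lower at the other times, beside 2.69% of all genes, and 0 at CT22. For a higher value at CT22 than elsewhere, 10 had an unadjusted p under 0.05 by edgeR, beside 2.51% of all genes. Col1a1 went from -0.99 (SE 0.16) at the other times to 0.15 at CT22, a difference of 1.14 (SE 0.39, unadjusted p of 0.00577 and adjusted p of 0.879 by edgeR). It was 0.53 without FoxP1SkmKO KPC replicate 1, the library with the most Col1a1. The same held for 11 of 36 other matrix genes, 6 of 14 fibroblast markers and 5 of 10 Schwann cell markers. Fibroblast markers had medians of -0.54 at the other times and 0.08 at CT22. They share Col1a1, Col1a2 and Col3a1 with the collagens and Dcn and Lum with the other matrix genes, so these counts are not separate. The values at CT22 rested on single mice: the fibroblast median was -0.33 without FoxP1SkmKO KPC replicate 1, -0.18 without WT KPC replicate 2 and 0.32 without FoxP1SkmKO KPC replicate 2. The Schwann cell median of 0.07 was -0.11, and that of other matrix genes of 0.02 was -0.24, without FoxP1SkmKO KPC replicate 1. JAK-STAT genes did not show such a gap, with a median of 0.27 at CT22 and 0.27 elsewhere. The CT22 median also rested on 1 mouse, at 0.11 without FoxP1SkmKO KPC replicate 2. At the other times 13 of 25 were called higher and 1 lower, beside 3.38% and 2.69% of all genes.

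**Figure D5:**
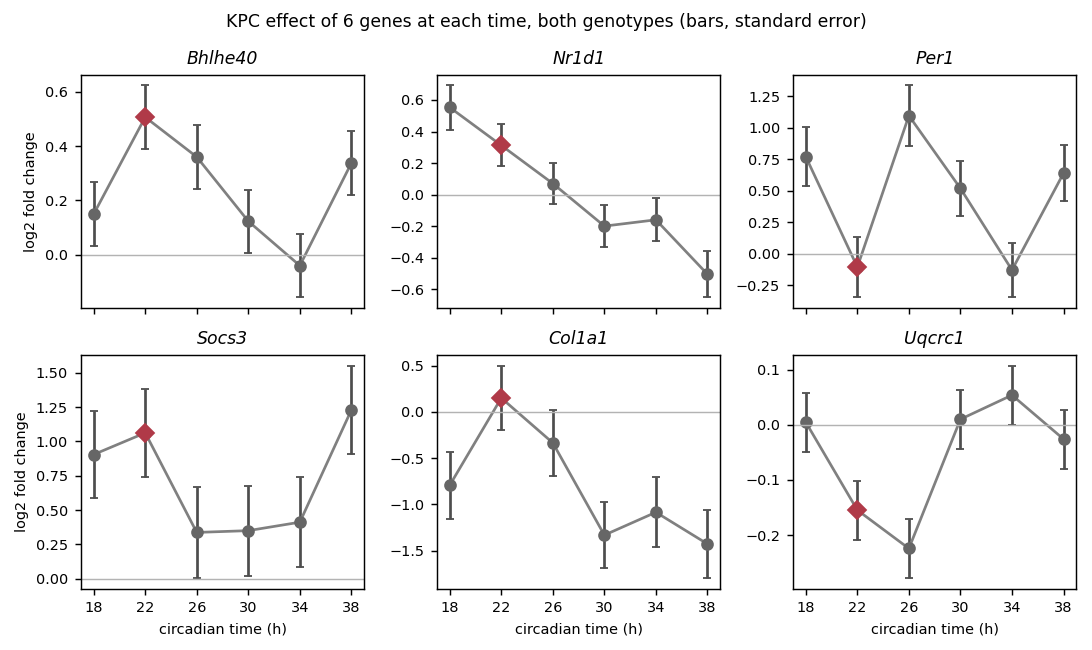
Log2 fold change of KPC against control over both genotypes (y axis, bars are the standard error of the fit) at the 6 circadian times (x axis) for 6 genes, with CT22 as a red diamond. Per1 is at -0.11 at CT22 between 0.77 at CT18 and 1.10 at CT26, Col1a1 is at 0.15 at CT22 and below 0 at the other times, and Uqcrc1 is lowest at CT26 and next lowest at CT22.

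OXPHOS genes had a median of -0.11 at CT22 and -0.05 over the other 5 times, and 3 of 83 had an unadjusted p under 0.05 for a lower value at CT22, close to the 2.65% of all genes. Without WT KPC replicate 2 the CT22 median was -0.04. At CT26, the next time sampled, 46 of 83 were called lower, beside 2.44% of all genes. Uqcrc1 was at -0.15 (SE 0.05) at CT22 and -0.22 (SE 0.05, adjusted p = 0.0095 by edgeR) at CT26, and at 0.00, 0.01, 0.05 and -0.03 at CT18, CT30, CT34 and CT38. Fast-fiber genes had a median of -0.11 at CT22, or -0.07 without FoxP1SkmKO control replicate 1, and 0.05 at the other times. For a lower value at CT22, 7 of 17 had an unadjusted p under 0.05 by edgeR, beside 2.65% of all genes, and none was called.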

How the data were processed

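TA muscle RNA was poly(A)-selected and sequenced. The authors deposited gene-level counts with FPKM values for each library. The submitters' processing notes name HISAT2 2.0.5, DESeq2 1.20.0 and build mm39, whereas the study's methods name STAR and HTSeq, so the aligner behind the counts is uncertain. Whether counting used strand is not given in the sources used here. FPKM were deposited beside the counts and served to recover genes left out of a table, at most 1 count per gene and 367 to 1064 counts per library. Columns of the authors' own fold changes and p-values were not used. All 48 libraries (24 groups of 2) were fitted in edgeR 4.0.16 (filterByExpr, TMM, glmQLFit, R 4.3.3), with contrasts for the KPC effect at CT22, its difference between genotypes and its difference from the other 5 times. DESeq2 1.42.0 and other settings were alternatives. The code was tested on simulated data. The members and all gene lists were chosen with earlier results of these data known. Genes were named as called genes, Foxp1, all clock genes but 1 that is not reported here, the genes that the study names for CT18 and CT22, and the most abundant members of a list, and every other named gene was picked with its values in view. No batch is given in the labels.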

Additional observations from a re-analysis of the deposited data

Results flagged for a closer look

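One gene was set aside because the KPC effect differed between genotypes: Timp4, with a difference of -1.45 on the log2 scale, WT minus FoxP1SkmKO. The other values below lie far from the remaining 3 libraries of their condition at CT22, their gap to the nearest taking up more of the range of the 4 than Dixon's 95% limit, which chance gives in about 1 of 20 groups. Of 238 groups examined 13 were so placed, beside 5.72% of all genes in controls and 5.62% in KPC muscle, so the number is close to the background. Most were in FoxP1SkmKO control replicate 1: the liver list at 316 CPM (others 27.1 to 46.4), interferon-responsive genes at 315 CPM (165 to 179), MHC class I genes at 716 CPM (496 to 534), Gbp4 at 39.1 CPM (10.2 to 11.0), Socs1 at 1.66 CPM (0.72 to 0.854), Per3 at 30.1 CPM (24.6 to 25.3) and F13a1 at 6.34 CPM (5.03 to 5.22). Wdfy4 was at 20.4 CPM in FoxP1SkmKO control replicate 2 (1.38 to 2.01). In WT control replicate 2 the endothelial markers were at 1350 CPM (1370 in the others), and Uqcrc1 was at 1050 CPM (920 to 935), while Pvalb was at 8170 CPM in WT control replicate 1 (6950 to 7110). Among KPC libraries, tricarboxylic acid cycle genes were at 10600 CPM in WT replicate 2 (11900 to 12000) and Pvalb was at 5790 CPM in WT replicate 1 (6740 to 6830).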

How the results depend on the processing

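Without the filter on low counts, the fit gave 89 calls over both genotypes, 134 in WT, 130 in FoxP1SkmKO, 153 for the difference between genotypes and 143 for the difference between times. In that fit the prior degrees of freedom were infinite, against 8.611 with the filter, so that each gene took the spread of the trend (for example, the standard error of Gapdh was 0.0683 instead of 0.989). All 89 genes were also tested with the filter and not called there. DESeq2 gave 13 calls in WT, 1 in FoxP1SkmKO and 3 between genotypes, and on the 4 libraries of each genotype alone 29 and 7. Leaving out 1 library gave 0 to 1 calls over both genotypes, 0 to 3 in FoxP1SkmKO, 0 to 2 between genotypes and 0 to 1 between times, and 0 in WT. The calls over both genotypes were Wdfy4 without FoxP1SkmKO control replicate 1 and Chac1 without FoxP1SkmKO KPC replicate 1, and in FoxP1SkmKO there were 1 and 3 without the same 2 libraries. The CT22 libraries alone without FoxP1SkmKO control replicate 1, chosen after seeing the data, gave 1. The Timp4 call became 0 with DESeq2 size factors, with the replicate block, and with the 8 libraries alone, with or without the block. With the liver genes removed, the difference between genotypes had 1 call and the other 4 comparisons had 0. Same-numbered mice showed no broad shared deviation (correlations of -0.19 to 0.03 over 6 pairs of groups). Such correlations cannot settle whether mice were paired, since a pairing that moves few genes would not show. FoxP1SkmKO KPC had -0.19 with WT KPC and -0.16 with FoxP1SkmKO control. The replicate block gave 0 calls in all 5 comparisons. Crossing the numbers of FoxP1SkmKO KPC, also added later, gave 0, 0 and 1 calls. Over the 75 values of single genes, 1218 alternative values stayed on the same side of the threshold, 34 came to pass it and 10 no longer did. No called value changed sign, while some values that were never called did, such as those of Per1 and Col1a1.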
